A study of Mus musculus with 6 samples.

Results

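The genes Txnip, Txnrd1, Srxn1, Mt2 and Hmox1, which act in cellular redox control and metal handling, were followed in epididymal white fat of mice given the beta3-adrenergic agonist CL-316,243 and of mice given saline. The members were chosen by gene symbol, with their ratios in these data known, and make up 5 of the 13409 genes that the platform annotation names on the array. Each has 1 probe. Txnip lies on chromosome 3 (96557957 to 96561857), Txnrd1 on chromosome 10 (82833951 to 82897724), Srxn1 on chromosome 2 (152105524 to 152111376), and Mt2 (94172618 to 94173567) and Hmox1 (75093618 to 75100593) on chromosome 8 of RefSeq's GRCm38.p6. The sources used here do not give the place of each probe within its gene.

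The animals were male C57BL/6J mice aged 12 weeks, killed 3 hr after injection. Treated mice received CL-316,243 at 1 mg per kg body weight (the labels also spell it CL316,246), and control mice received saline. RNA of 6 mice per treatment was pooled, and both pools were hybridised together on each of 6 two-colour arrays. The treated pool was in channel 1 on arrays 1, 2 and 3 and in channel 2 on arrays 4, 5 and 6. All 6 arrays therefore repeat 1 biological comparison, the spread between mice is unknown, and no p-value is given for a difference between the pools. In whole fat, fewer cells of a type and less RNA per cell cannot be told apart.

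Each value is a log ratio of both pools, taken as log2. The sources used here do not give the numerator, so "higher" and "lower" refer to the numerator pool, and every direction turns round if that pool is saline. The sign did not follow the channel. Of 77 genes with a mean ratio of at least 1 in size in both channel orientations, 76 had the same sign in both. The placement described below favours values that agree in sign between arrays and so can raise this count. Genes known to rise in fat after beta3-adrenergic stimulation were positive, with mean log2 ratios of 0.49 for Ucp1 (4 of 4 arrays), 1.18 for Dio2, 0.77 for Ppargc1a and 1.77 for Il6 (6 of 6 arrays each). On that basis the treated pool is the likely numerator. If the values were natural logs, each would be 1.44 times larger on the log2 scale. No intensities were used here, so these are differences between pools and not levels of expression.

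These genes belong to linked systems that keep protein thiols reduced and bind reactive metals. Thioredoxin reductase passes electrons from NADPH to thioredoxin, which reduces peroxiredoxins, the enzymes that remove hydrogen peroxide. Txnip binds reduced thioredoxin and also restrains glucose uptake. Sulfiredoxin, the product of Srxn1, repairs over-oxidised peroxiredoxins, metallothionein 2 binds zinc and copper through its cysteines, and heme oxygenase 1 breaks heme down to biliverdin, carbon monoxide and iron. The factor Nfe2l2 induces Txnrd1, Srxn1 and Hmox1 in many cell types, Mtf1 induces metallothioneins when zinc rises, and Mlxipl and Mlxip induce Txnip when glucose metabolites rise.

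Promoters of the 3 members with mean ratios largest in size are shown. Which letters are marked depends on the motifs chosen for each gene. Each run is the 250 bases before the gene's RefSeq start, plus strand of GRCm38.p6: chr3:96557707-96557956 for Txnip, chr2:152105274-152105523 for Srxn1 and chr8:94172368-94172617 for Mt2. Capitals mark matches to a carbohydrate response element in its paired form (Txnip), AP-1 sites (Srxn1), and an antioxidant response element core with metal response element cores (Mt2).
Txnip: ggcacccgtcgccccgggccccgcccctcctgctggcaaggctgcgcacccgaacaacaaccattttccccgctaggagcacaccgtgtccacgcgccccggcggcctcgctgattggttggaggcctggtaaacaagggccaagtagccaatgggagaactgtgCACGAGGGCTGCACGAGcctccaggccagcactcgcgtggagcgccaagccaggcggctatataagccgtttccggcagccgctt
Srxn1: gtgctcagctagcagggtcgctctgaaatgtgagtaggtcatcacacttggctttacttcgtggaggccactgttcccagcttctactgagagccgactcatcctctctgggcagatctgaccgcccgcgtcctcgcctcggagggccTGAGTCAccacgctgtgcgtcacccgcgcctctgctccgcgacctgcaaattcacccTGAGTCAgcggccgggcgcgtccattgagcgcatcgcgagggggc
Mt2: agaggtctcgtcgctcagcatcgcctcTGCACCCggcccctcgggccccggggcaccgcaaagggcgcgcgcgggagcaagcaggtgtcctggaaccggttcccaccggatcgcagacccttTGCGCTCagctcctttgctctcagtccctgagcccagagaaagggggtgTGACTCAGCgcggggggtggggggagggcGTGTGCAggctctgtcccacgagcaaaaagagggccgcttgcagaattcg

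Motifs were searched on both strands of the 250 bases before the start, with the sequences known when the letters were chosen, and 4 of the 5 members had a promoter entry. The paired carbohydrate response element was searched as a pair of CACGAG with 5 bases of any kind between. It occurred in 1 of 32851 RefSeq promoters (0.00304%), that of Txnip, starting 85 bases upstream. Both CACGAG runs are the letters of the Txnip site itself, so a match there was fixed by the choice. Elements with other letters were not counted, and the share says nothing of their frequency. The AP-1 letters TGANTCA, present in 6.75% of promoters, occurred 102 and 45 bases upstream in Srxn1. In Mt2 they occurred 79 bases upstream, where they overlap the antioxidant response core TGACNNNGC, which is in 10.2% of promoters. In Srxn1 the match 45 bases upstream continues as TGAGTCAGC, which misses that core only by a G in place of its C. Metal response cores TGCACNC (10.4%) occurred 223 bases and, on the other strand, 50 bases upstream in Mt2, and TGCGCNC (12.5%) occurred 128 bases upstream. TGCGCNC also matched, in lower case above, 208 bases upstream in Txnip and, on the other strand, 19 bases upstream in Srxn1. Of 3 starts of Txnrd1, the one whose window begins at 82858956 held TGACNNNGC on the other strand, 92 bases upstream. The E-box CACGTG (6.02%) and the cAMP response element TGACGTCA (1.55%) had no match in these windows. A match is a string of letters and not evidence of binding.

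A gene was called where the mean of its 2 orientation means was at least 1.5-fold in size and its sign was the same on every array that measured it. Among the 5 members Srxn1 was called higher and Txnip lower, and Txnrd1, Mt2 and Hmox1 were not called. Of 12987 genes with enough values, 423 (3.26%) were called, 273 higher (2.1%) and 150 lower (1.16%). Because the members were chosen on this contrast, nothing is read from their count against that share.

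Txnip, the inhibitor of thioredoxin, had log2 ratios of -0.18, -0.63 and -0.24 on arrays 1, 2 and 3, with the treated pool in channel 1. On arrays 4, 5 and 6, with the treated pool in channel 2, they were -1.61, -2.12 and -1.79. All 6 were negative, and the orientations did not overlap. The means were -0.35 ± 0.24 for the channel 1 arrays and -1.84 ± 0.26 for the channel 2 arrays, named by the place of the treated pool (SD, n = 3 arrays each). The mean of both was -1.09 (SD over the 6 arrays 0.85), or 2.13-fold lower, and 15 genes had a lower mean. By orientation alone the fold was 1.27 on the channel 1 arrays and 3.58 on the channel 2 arrays.

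Txnrd1, the cytosolic thioredoxin reductase, had log2 ratios of 0.72, 0.75 and 0.28 with the treated pool in channel 1, and 0.38, 0.28 and 0.53 with it in channel 2. Its values were positive throughout, overlapped between orientations and were the second most even of the members, with an SD over arrays of 0.21. The mean of 0.49 corresponds to 1.40-fold, short of the 1.5-fold needed for a call.

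Srxn1, the sulfiredoxin gene, had log2 ratios of 1.81, 1.33 and 0.94 with the treated pool in channel 1, and 1.44, 0.76 and 0.06 with it in channel 2. All were positive and the orientations overlapped, but array 6 lay near 0. The mean was 1.06 (SD over arrays 0.61), or 2.08-fold higher, and 91 genes had a higher mean. Without array 6 the mean log2 ratio was 1.23.

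Mt2, the metallothionein gene, had log2 ratios of 1.99, 0.95 and 1.65 with the treated pool in channel 1, and -0.26, -0.22 and 0.28 with it in channel 2. The first 3 were high, the other 3 lay around 0, and the orientations did not overlap. The orientation means were 1.53 ± 0.53 for channel 1 and -0.07 ± 0.30 for channel 2 (SD, n = 3 arrays each). Their mean of 0.73 rests on the channel 1 arrays, only 4 of 6 arrays were positive, and no call was made. The value on array 2 had the least certain position of those kept for Mt2, with a posterior probability of 0.963, and without that array the mean log2 ratio was 0.88.

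Hmox1, the inducible heme oxygenase, was measured on 4 arrays. Its log2 ratios were 0.27 and 0.40 on arrays 1 and 3 and 0.49 and 0.08 on arrays 5 and 6. On arrays 2 and 4 its position had posterior probabilities of 0.448 and 0.913, under the 0.95 required, and no value was kept. All 4 were positive and the orientations overlapped. The mean was 0.31 (SD over arrays 0.18), or 1.24-fold, and 1200 genes had a higher mean.

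**Figure D1:**
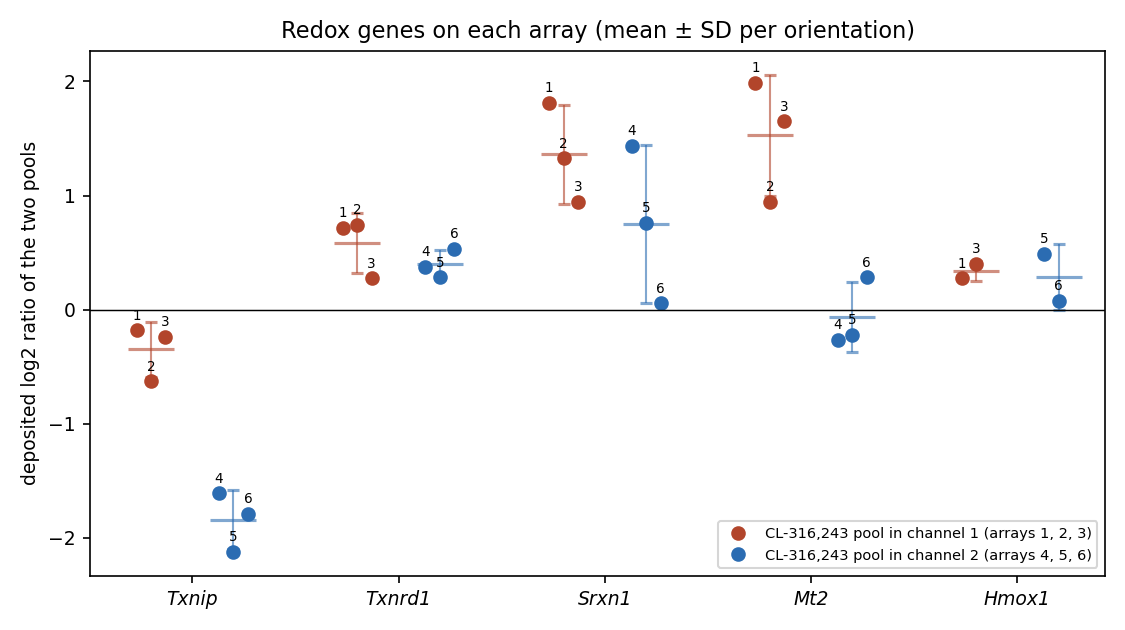
Log2 ratio of the pools (vertical axis) for each redox gene, with 1 point per array numbered 1 to 6; red, treated pool in channel 1, blue, treated pool in channel 2. Wide bars are means and whiskers SD of each orientation. Txnip is below 0 on 6 of 6 arrays and lowest on arrays 4, 5 and 6, and Mt2 lies between 0.95 and 1.99 on arrays 1, 2 and 3 and between -0.26 and 0.28 on the others.

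How far a ratio differed between the channel orientations was not itself used to choose the members. This difference was tested over all 12987 genes with limma. Subtracting the mean with the treated pool in channel 2 from that with it in channel 1 gave 1.59 ± 0.29 for Mt2 and 1.49 ± 0.23 for Txnip (log2, SE). The limma unadjusted p was 0.000332 for Mt2 and 7.93e-05 for Txnip, and the adjusted p 0.306 and 0.147. Neither passed 0.05. Only 59 genes had a larger difference in size than Mt2 and 76 a larger one than Txnip, against a median size of 0.25 over all genes. Both differences rest on the placement described below. With a placement begun from the missing spot of array 6 at the end of its column, they were -0.28 for Mt2 and 0.50 for Txnip. With rows as deposited they were -0.30 and 0.57.

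For Srxn1 the difference between orientations was 0.61 ± 0.36, for Txnrd1 0.18 ± 0.22 and for Hmox1 0.05 ± 0.28 (SE), with limma adjusted p = 0.552, 0.775 and 0.956 in that order. Of all genes tested, 1 passed (0.0077%), Theg, at 4.09 with the treated pool in channel 1 against -2.98 in channel 2, and 1376 (10.6%) had an unadjusted p under 0.05. Orientations without overlap, as in Txnip and Mt2, were found in 1503 of the 7974 genes measured on all 6 arrays (18.8%). Agreement between arrays enters the placement and so can change these shares. Channel, dye and any other difference between the sets of arrays of each orientation cannot be told apart from these labels.

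**Figure D2:**
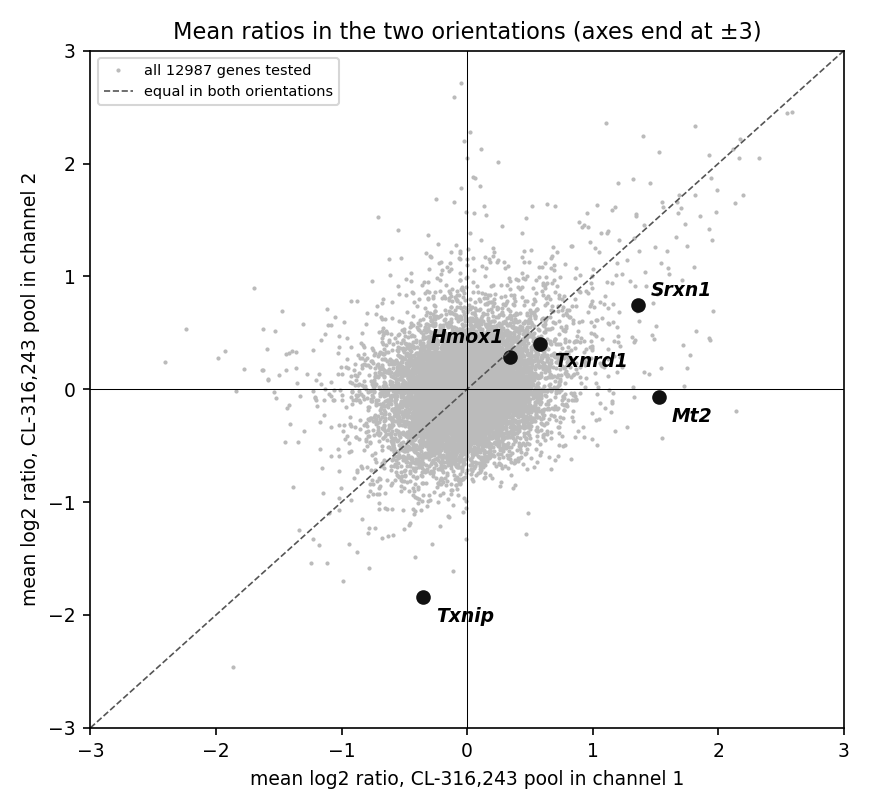
Mean log2 ratio with the treated pool in channel 1 (horizontal axis) against that with it in channel 2 (vertical axis); grey, 12987 genes tested, black, the 5 redox genes; genes beyond the axis limits are not drawn. Txnrd1, Hmox1 and Srxn1 lie in the upper right quadrant, Txnip far below the dashed line of equality and Mt2 to the right of it near 0 on the vertical axis.

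Related genes were read from 7 pathway lists. Of 194 genes listed beside the members, 157 had a named probe and 150 enough values. Of these, 6 were called (4.0%), 4 higher and 2 lower, against 3.26% of all genes. Their median log2 ratio was -0.05, against -0.01 over all genes. On these counts the lists as a whole lay close to the background.

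In the thioredoxin and peroxiredoxin system 1 of 23 genes was called. This was Prdx1, a cytosolic peroxiredoxin and substrate of sulfiredoxin, at a mean log2 ratio of 0.81. Its value of 2.21 on array 3 stood above 0.21 to 0.48 on its 4 other arrays, and without array 3 the mean was 0.31 and the call was lost. Without array 1 it was 1.31. The largest ratios without a call were those of Txndc17 (-0.73), Prdx2 (-0.59) and Txnl1 (0.44). Txndc17 had -0.48 without array 3 and -0.975 without array 1, and was called without array 5 (-0.84). Prdx2 had -0.34 without array 2 and -0.78 without array 1, and was called without array 6 (-0.67). Thioredoxin itself, Txn1, had a mean of -0.28 with 2 of 5 arrays positive.

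Among arrestin-domain relatives of Txnip and its glucose-sensing regulators 0 of 9 genes were called by the size rule. The relative Arrdc2 was negative on 6 of 6 arrays, with a mean of -0.49 and a range of -1.03 to -0.15. Its orientations did not overlap either, but it was further below 0 with the treated pool in channel 1 (mean -0.72) than in channel 2 (-0.26), the reverse of Txnip. Arrdc4 had a mean of -0.31, which was -0.19 without array 2 and -0.49 without array 6. The mean of Mlx, the partner of the glucose-sensing factors, was 0.24 with 6 of 6 arrays positive. Mlxipl stood at 0.03.

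Of 32 genes of glutathione synthesis and use, 1 was called: Chac1, which degrades glutathione, at 0.74 with 5 of 5 arrays positive. The 3 largest without a call were negative, Gstm3 (-0.58), Gstt3 (-0.57) and the peroxidase relative Gpx8 (-0.57). Gstm3 had -2.73 on array 2 and a mean of -0.16 without it, against -0.88 without array 3. Gclc, the catalytic subunit of the rate-limiting enzyme of glutathione synthesis, had a mean of -0.01.

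Among Nfe2l2 and Bach1 regulators and other targets of the antioxidant response element, 1 of 23 genes was called. Ugdh, which makes UDP-glucuronate, had a mean of 1.62 and ranged from 0.77 to 2.37 over 6 arrays, similar with the treated pool in channel 1 (1.68) and in channel 2 (1.56). Me1 (0.69), Sqstm1 (0.49) and Cbr1 (-0.49) were the largest without a call. Nfe2l2 itself had a mean of -0.39, Keap1 -0.13, Bach1 -0.12 and the classical target Nqo1 -0.02.

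In the list of metallothioneins with zinc and copper transport genes 0 of 23 were called by the size rule. The mean of 1.33 of Mt4, a metallothionein of stratified epithelium, came mainly from 6.16 on array 4 and was 0.47 without that array. The copper pump Atp7b, at -0.51, had -4.49 on array 2 and a mean of 0.23 without it, against -0.86 without array 1 and -0.89 without array 3. The zinc transporter Slc39a11 had a mean of -0.46, Mt3 0.20 and the zinc sensor Mtf1 0.10. Mt1, usually induced together with Mt2, has no named probe here.

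Of 27 other heme and iron genes, 2 were called. Slc40a1, the iron exporter ferroportin, was lower on 6 of 6 arrays, with a mean of -0.85 and a range of -1.45 to -0.39. Hp, encoding the hemoglobin-binding protein haptoglobin, was called at 1.69 on 4 arrays, but its value was 3.13 on array 3 and 0.10 to 0.51 on the others, and without array 3 too few arrays remained. The constitutive heme oxygenase Hmox2 had a mean of -0.08 and the biliverdin reductase Blvrb -0.10. The ferroxidases Cp (-0.49) and Heph (-0.46) and the heme synthesis enzyme Ppox (-0.39) were negative on every array that measured them.

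Of 13 genes of superoxide, hydrogen peroxide and NADPH oxidase, 1 was called. Aox1, an aldehyde oxidase, was lower at -0.66 on 6 of 6 arrays (range -0.96 to -0.32). Noxo1 (-0.49), Sod1 (0.48) and Cat (-0.45) were the largest without a call. Sod1 had 1.35 on array 3 and a mean of 0.26 without it. Cat had a mean of -0.22 without array 1 and -0.68 without array 3, each from 3 arrays, fewer than a call needs.

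**Figure D3:**
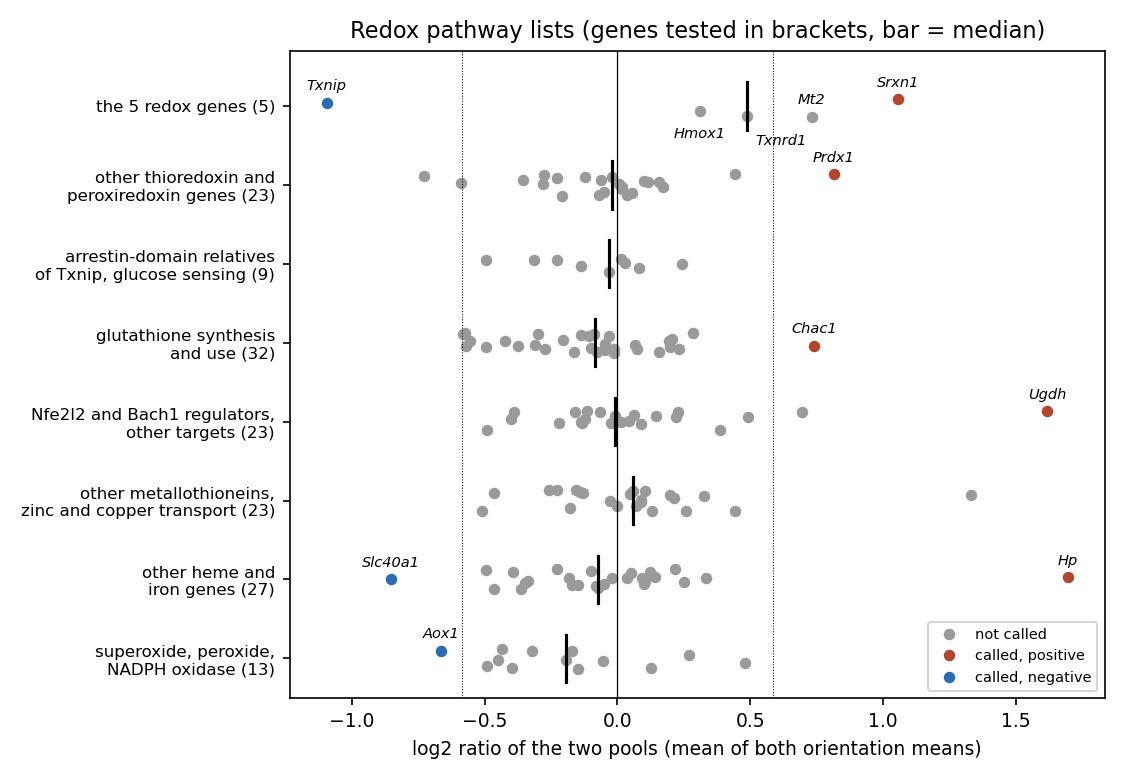
Mean log2 ratio (horizontal axis) of each gene of the pathway lists, 1 point per gene; red, called higher, blue, called lower, grey, not called; black bars are list medians and dotted lines mark 1.5-fold. The medians of the 7 lists lie between -0.19 and 0.06, and Txnip and Srxn1 lie outside the dotted lines.

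Likeness to a member was measured as the root mean square distance of log2 ratios over its arrays. Nearest to Txnip among 7973 genes were Pxdn (0.36), Dock9 (0.44) and Bnip3l (0.48), against a median distance of 1.36. Pxdn too had a mean of -0.28 with the treated pool in channel 1 against -1.37 in channel 2. Nearest to Srxn1 were Ctcflos (0.26), Litaf (0.33) and Bag3 (0.34), against a median of 1.25. Each of them was positive on 6 of 6 arrays and, like Srxn1, lowest on array 6. Nearest to Mt2 were Cyb5a (0.43), Tuba1b (0.43) and Rpl3 (0.45), against 1.18, all higher with the treated pool in channel 1. The neighbours were picked on these same ratios, so the traits they share with a member were largely set by the choice.

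For Txnrd1 the nearest were Glyr1 (0.16), Zfp276 (0.17) and Clec16a (0.17), against a median distance of 0.63. For Hmox1, over its 4 arrays and 12555 genes, they were Lama1 (0.03), Syn3 (0.04) and Toe1 (0.05), against 0.46. Genes with small ratios have many close neighbours by this measure, and genes on 1 array share its labelling and scan.

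**Figure D4:**
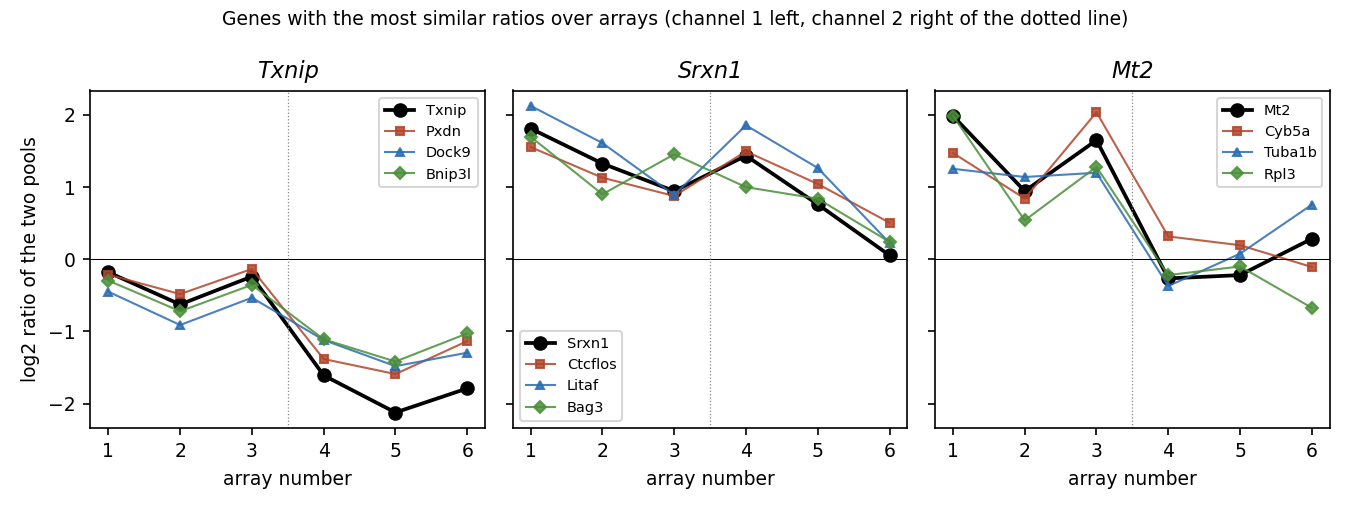
Log2 ratio of the pools (vertical axis) on arrays 1 to 6 (horizontal axis) for Txnip, Srxn1 and Mt2 (black) and the 3 genes nearest to each (colours); the dotted line parts arrays with the treated pool in channel 1, left, from those with it in channel 2, right. The neighbours of Txnip and Mt2 are higher left of the line, and those of Srxn1 are lowest on array 6. They were picked on these same ratios, which largely sets such likeness.

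Rows of the table did not correspond between arrays, and every value above rests on placing each column on probe numbers. Columns were empty only at their ends, at 29, 724, 38, 169, 8 and 1 rows on arrays 1 to 6. The placement put nearly all lost spots before the probes of Mt2 (12625), Txnip (14247), Srxn1 (17201) and Txnrd1 (17773): after probe 12000 the arrays lost at most 3 spots each. Hmox1, at probe 253, lies where arrays 2 and 4 were still uncertain. The reported placement put the single missing spot of array 6 at probe 4146. Another placement was begun with that spot at the end of the column. Later rounds could move it, and where it finished is not given here. The mean log2 ratios of that placement were -0.36 for Txnip, 0.07 for Txnrd1 and 0.32 for Srxn1, and neither Txnip nor Srxn1 was called. With rows as deposited, each of the 5 means had the opposite sign and lay within 0.15 of 0. Arrays of the same orientation then had a mean rank correlation over probes (Spearman) of 0.284 and those of opposite orientation one of 0.109, against 0.004 and -0.002 for rows as deposited. Agreement between arrays enters the placement and so raises these values. Over 827 pairs of probes of the same gene, at higher probe numbers, the mean ratios over arrays had a weak correlation (Pearson) of 0.095. With the numbering shifted by 1 or 2 probes either way it was -0.007 to 0.039.

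A single array could dominate a gene: of 7974 genes, 43 had a value on array 3 over 2 log2 units higher than the others' median, and 77 a value on array 2 as far below theirs. No member did. Among 8 adipocyte markers Cidec (1.17) and Lpl (0.87) were called higher, both through array 3 (0.50 and 0.39 without it, 1.84 and 1.35 without array 1). Pparg was called lower (-0.68, with -0.47 without array 2 and -0.80 without array 1). Of smooth muscle markers 3 of 7 were called higher, Acta2 (0.70), Cnn1 (1.26, with 0.79 without array 1 and 1.73 without array 3) and Des (0.92). For these marker counts, the share of all genes called was 3.26%, with 2.1% called higher and 1.16% lower. None of 8 macrophage, 3 red cell, 7 endothelial and 3 mesothelial markers was called by the size rule. Of 9 seminal vesicle and epididymis markers 6 were called, from -5.47 for Svs5 to 4.68 for Serpina1f, with Svs2 (-4.98), Pate4 (-2.73), Svs6 (-2.17) and Svs4 (-1.16) between. The part of these differences in the members' ratios was not tested. Whether the markers of fat are present cannot be read from ratios.

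**Figure D5:**
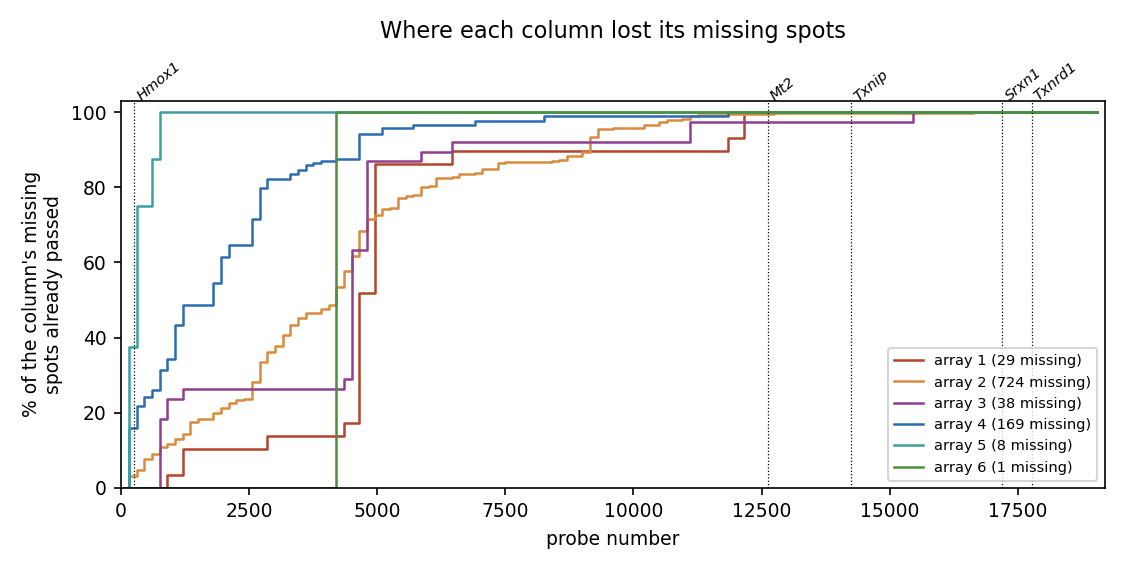
Share of each column's missing spots already passed (vertical axis, percent) along the probe number (horizontal axis), 1 line per array; dotted lines mark the probes of the 5 redox genes. By the probe of Mt2 the lines have reached about their final height, while at the probe of Hmox1 those of arrays 2, 4 and 5 are still rising.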

How the data were processed

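Pools of RNA from epididymal fat were compared on 6 two-colour spotted arrays. Per the labels' protocols, cDNA of each pool was labelled with fluorescein (Cy-3) or biotin (Cy-5), detected with a tyramide amplification kit and read with QuantArray 3.0. Values were deposited as log ratios, taken as log2, which the authors scaled between dyes and smoothed by LOWESS in a program of their own, per the labels. The sources used here do not give the numerator, log base, dye of each channel, background correction or filter on spots. The number of arrays limits the precision.

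Columns were aligned to probe numbers 1 to 19200 by a hidden Markov model that allows lost but no added spots. Normal scores clipped at 3 were predicted from the other arrays over 25 rounds, and values with a posterior of at least 0.95 were kept (64.8% of probes on array 2, at least 91.9% on the others). Of 6 starts, which differed in array order and run length of lost spots, the one with the highest gain in log-likelihood was used. All 6 began with array 6's lost spot near probe 4000. Starts with that spot elsewhere were run afterwards with the order and run length of the chosen one, and had lower gains. In 2 simulations of 19200 probes with the inferred losses, at least 99.0% of kept positions were right on every array. Among the first 1000 probes it was at least 96.2%. Every simulated array carried a signal of the same strength, set near the agreement of the placed columns. The real columns differed, with a gain in log-likelihood from the other arrays of 295 on array 2 and 3006 on array 5. The simulated accuracy therefore need not hold on array 2. The inferred losses also fixed where array 6's lost spot lay in the simulations. They therefore cannot show that this spot was placed rightly in the real column. In the same simulations the size rule called 99.5% of probes given an added shift of 1.5 (log2) between pools. That shift is larger in size than the mean of either called member. Of probes without an added shift it called 1.9%. Those probes still carried the simulated signal shared between arrays, so 1.9% is not a rate of false calls.

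Names came from the platform annotation: 14717 probes are listed, 14711 with 1 symbol and 6 with several (not named), and 4483 are unnamed here. Probes of a gene were averaged. Genes needed 4 arrays, at least 1 per orientation. The orientation term was fitted with limma 3.58.1 (lmFit, eBayes, Benjamini-Hochberg adjustment, R 4.3.3); pool ratios were called by size and sign, with a limma test over arrays only as an alternative. Promoter sequences are RefSeq's (GRCm38.p6).

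The members and lists were chosen with earlier results of these data known. Named were all members; per pathway list the called genes and the 3 largest others; per marker list the called genes (of the 2 largest others only counts are given); and the 3 nearest genes per member. Txn1, Mlxipl, Gclc, Nfe2l2, Keap1, Bach1, Nqo1, Mt3, Mtf1, Hmox2 and Blvrb were named for their roles after their values were seen. Alternatives varied the arrays, placement, scale, posterior, orientation and call rule.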

Additional observations from a re-analysis of the deposited data

How the results depend on the processing

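The placement of the columns decided the values. With rows as deposited, log2 ratios were 0.06 for Txnip, -0.05 for Txnrd1, -0.15 for Srxn1, -0.06 for Mt2 and -0.07 for Hmox1, each of the opposite sign to the reported mean, and calls fell to 40 by size over all genes, 0 in the redox lists and 0 for the orientation term; rows then hold different probes on different arrays. The next 2 settings were added after seeing the data. With a placement begun from the missing spot of array 6 at the end of its column, Txnrd1 had 0.07, Srxn1 0.32 and Txnip -0.36. That placement had a lower gain in log-likelihood (8496) than the reported one (9901). Another starting order left all 5 members at the reported values. With arrays of 1 orientation alone, the treated pool in channel 1 gave 877 calls over all genes and 13 in the lists, and the treated pool in channel 2 gave 981 and 14, from fewer arrays; Mt2 then had -0.07 in channel 2. At 2-fold, 114 genes were called, 2 of them in the lists. A limma test of the ratio (adjusted p under 0.05), which treats repeat arrays of the same pools as replicates and covers array-to-array spread only, called 423 genes, of which 303 were also called by size. Leaving out each array in turn gave -1.15 to -1.02 for Txnip, 0.45 to 0.57 for Txnrd1, 0.89 to 1.23 for Srxn1 and 0.62 to 0.88 for Mt2; Hmox1 stayed at 0.31 without array 2 or 4 and had too few arrays otherwise. The same omissions gave 394 to 481 calls by size, 7 to 9 in the lists, and 1 to 2 for the orientation term. The orientation difference of Mt2 turned direction, from 1.59 to -0.28 with the start that had array 6's spot at the column's end. With rows as deposited it was -0.30, and that of Txnip fell to 0.50 and 0.57 in these settings. Over the alternatives, its limma adjusted p ranged from 0.079 to 0.926 for Txnip and from 0.0718 to 0.926 for Mt2. Placement on absolute values gave no value for Hmox1. No paired analysis was possible because arrays of the 2 orientations share no replicate number. Without intensities, no limit from signal over background can be given.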

Other observations

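Because Rpl3 was among the genes nearest to Mt2, cytosolic ribosomal protein genes were read as a group, chosen after their values were seen. Of 52 measured, 39 (75%) had a higher log2 ratio with the treated pool in channel 1 than in channel 2, against 50.5% of all 12987 genes. Their median log2 ratios were 0.14 for channel 1 and -0.08 for channel 2, and their median difference was 0.31, against 0.01 over all genes. The difference in Mt2, 1.59, was larger than that median, and no test was made of the group.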
